A study of Mus musculus with 5 samples.

Results

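The RUNX family genes were followed through RXRα binding profiles of mouse alveolar macrophages (AMs), the resident phagocytes of the airspace. The members were Runx1, Runx2, Runx3 and Cbfb, 4 of 21840 protein-coding genes. A peak was assigned to a member when a transcription start site (TSS) of that member was the protein-coding TSS nearest to the peak midpoint. By this rule WT A held 15 member peaks among 4751 and WT G 39 among 9766, while KO A held 0 among 83 and KO G 1 among 208.

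AMs were recovered from lung by bronchoalveolar lavage, purified by FACS and profiled by HT-ChIPmentation with an antibody against RXRα, an assay in which Tn5 builds the sequencing library on the precipitated chromatin. WT A and WT G carried floxed Rxra and Rxrb without Cre (CD11cCre- Rxrabfl/fl), and KO A and KO G carried the same floxed alleles with Cre (CD11cCre+ Rxrabfl/fl). Cre was driven by the promoter of Itgax, the gene for CD11c, which is also active in dendritic cells and other macrophages, and all groups shared the floxed alleles, so no unfloxed group was compared. The labels give neither age nor sex of the mice, whose age as stated in the study is that of young adults. The mice had a C57BL/6J background, and both sexes were used overall. The replicates carried letters only, and no source used here ties a library to a single mouse, so p-values measure the spread between libraries.

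RUNX proteins are transcription factors that bind DNA through a Runt domain, and CBFβ, the product of Cbfb, is the partner without DNA contact that raises their affinity for it. RUNX1 is required for the formation of blood stem cells and acts with PU.1 and C/EBP factors in myeloid cells, RUNX2 is known for bone formation and RUNX3 for T cells and dendritic cells. Each Runx gene is read from a distal promoter (P1) and a proximal promoter (P2), which give proteins with different N termini. RXRα is a nuclear receptor that binds DNA as a heterodimer with partners such as PPARγ, mostly at DR1 elements, direct repeats of AGGTCA with 1 base between them.

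The first question was which of the genes had RXRα bound nearby, and in which libraries. Runx1 was nearest to 11 WT A peaks, 27 WT G peaks, 0 KO A peaks and 1 KO G peak. Runx2 was nearest to 4 peaks in WT A and 11 in WT G, and to 0 in each KO library. Runx3 had 1 peak, in WT G. Cbfb, the partner of the other 3, had 0 peaks in every library. For comparison, a peak of WT A was nearest to 10.4% of all protein-coding genes, a peak of WT G to 16.6%, a peak of KO A to 0.353% and a peak of KO G to 0.861%. The count of peaks by gene and library shows that both WT libraries lay above both KO libraries for Runx1 and Runx2, and that WT G held more peaks than WT A at each gene with peaks.

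**Figure D1:**
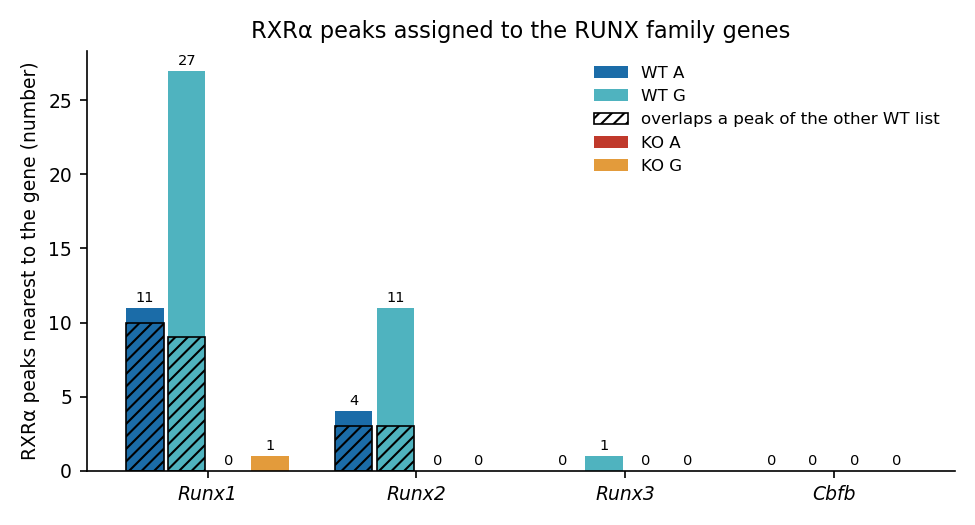
Number of RXRα peaks (y axis) nearest to Runx1, Runx2, Runx3 and Cbfb (x axis) in WT A, WT G, KO A and KO G, with the hatched part of a WT bar counting peaks that overlap a peak of the other WT list. Runx1 had 11 and 27 WT peaks, Runx2 had 4 and 11, and the KO libraries together had 1 peak.

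Over the family, WT libraries had 27 ± 17.0 peaks and KO libraries 0.5 ± 0.707 (mean ± SD, n = 2 each), a difference of 26.5 peaks. An exact permutation test over the libraries (two-sided) gave p = 0.333, the smallest value that 2 against 2 libraries can give, so the design could not reach 0.05. The difference was 18.5 peaks for Runx1 (19 ± 11.3 against 0.5 ± 0.707) and 7.5 for Runx2 (7.5 ± 4.95 against 0). The whole KO lists were short as well: the family took 0.316% of the WT A peaks, 0.399% of the WT G peaks and 0.481% of the KO G peaks, the last being a single peak. The genome-wide background derived from each list is given in pileup units. A fragment counts as 0.884 units in WT A and as 1 in the other lists. This background stood at 1.25 (WT A) and 0.551 (WT G) against 0.966 (KO A) and 0.936 (KO G). The part of these levels in the difference was not tested.

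WT peaks were next merged into regions, since peaks had been called separately in each library. The family held 40 of 10461 merged regions, and 11 of the 3423 regions with a peak in both WT lists, 8 nearest to Runx1 and 3 nearest to Runx2. A region in both WT lists was nearest to 8.85% of protein-coding genes. Of the WT A peaks of the family, 13 of 15 overlapped a WT G peak (86.7%, 95% exact binomial interval 59.5 to 98.3%), against 83.2% of all WT A peaks. In the other direction, 12 of 39 WT G peaks overlapped a WT A peak (30.8%, interval 17.0 to 47.6%), against 36.1% of all WT G peaks. Both shares lay near those of the whole lists. Both intervals treat peaks as independent, although the 13 shared WT A peaks fell in the 11 regions near Runx1 and Runx2. The 12 shared WT G peaks had a median fold enrichment of 8.62 and the 27 found in WT G alone had 5.53, against 7.22 and 5.73 over the whole WT G list, where fold enrichment is the ChIP pileup at the summit over the local background taken from the input, each with 1 added.

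The sequences below are the parts of mm10 on which most of the text that follows turns. They are 101-base windows around the summit of the stronger WT peak of a region, on the plus strand, and a region is named by its gene and the distance of its midpoint in kb from the most upstream TSS of that gene, positive in the direction of transcription. Capitals mark matches to DR1 (AGGTCANAGGTCA, up to 3 mismatches), to the C/EBP motif (TTACNNAA or TTGCNNAA) or to the RUNX core (TGTGGT or TGCGGT), on either strand.
Runx1 +42.1 kb, the region with the KO G peak, chr16:92783740-92783840: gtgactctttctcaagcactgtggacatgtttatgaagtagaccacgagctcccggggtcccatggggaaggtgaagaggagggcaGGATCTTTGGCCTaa
Runx1 -41.2 kb, strong in both WT lists, chr16:92867425-92867525: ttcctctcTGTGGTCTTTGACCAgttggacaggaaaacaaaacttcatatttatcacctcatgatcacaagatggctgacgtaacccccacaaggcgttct
Runx1 -386 kb, the strongest WT G peak of the family, chr16:93211648-93211748: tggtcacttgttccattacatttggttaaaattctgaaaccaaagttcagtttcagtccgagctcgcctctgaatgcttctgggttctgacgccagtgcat
Runx1 -26.1 kb, with a RUNX core, chr16:92852410-92852510: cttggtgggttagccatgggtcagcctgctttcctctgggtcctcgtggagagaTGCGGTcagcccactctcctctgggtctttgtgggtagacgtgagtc
Runx1 +213 kb, with a C/EBP match, chr16:92612622-92612722: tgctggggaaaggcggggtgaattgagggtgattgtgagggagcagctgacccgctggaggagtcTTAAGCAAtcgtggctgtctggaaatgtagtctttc
Runx2 +112 kb, with the closest DR1 match, chr17:44702338-44702438: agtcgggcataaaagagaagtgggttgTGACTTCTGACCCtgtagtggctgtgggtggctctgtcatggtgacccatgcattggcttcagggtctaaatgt
Runx2 +161 kb, with a C/EBP match, chr17:44653185-44653285: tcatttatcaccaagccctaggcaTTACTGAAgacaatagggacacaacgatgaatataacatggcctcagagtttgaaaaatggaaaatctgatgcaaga

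Runx1 (ENSMUSG00000022952.17) lies on the minus strand of chromosome 16 (mm10, chr16:92601466-92826149). Its distal TSS is at 92826149 and its proximal TSSs are at 92697328 and 92696125, up to 130.024 kb downstream. The peaks spread over both promoters, the introns and the flank. Downstream of P2 there were 2 peaks in WT A and 5 in WT G, at P2 2 in each, between P2 and P1 2 and 8, and at P1 1 and 2. Upstream of P1, a cluster from -26.2 to -41.4 kb held 2 peaks in WT A and 3 in WT G, and a far cluster from -203 to -387 kb held 2 and 7. The single KO G peak lay between the promoters. The map of the Runx1 peaks shows that each of these zones had peaks in both WT lists.

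**Figure D2:**
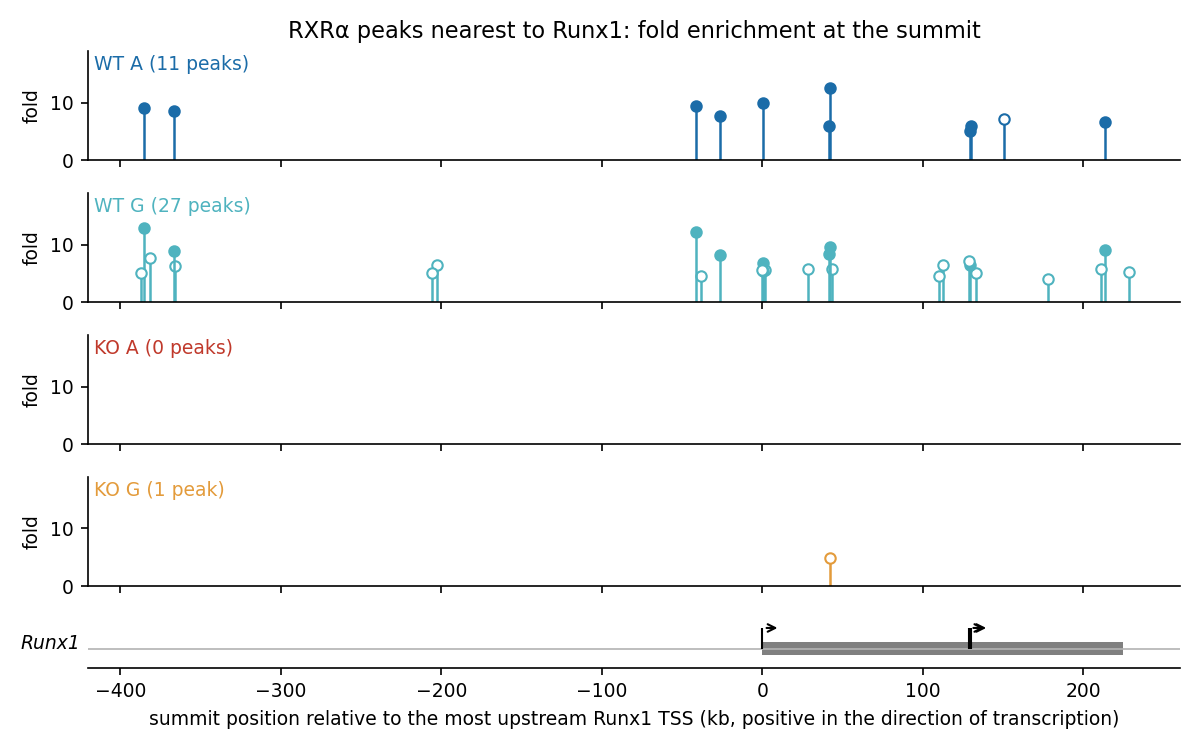
Fold enrichment at the summit (y axis) of every peak nearest to Runx1 against the summit position relative to the distal TSS in kb (x axis, positive in the direction of transcription), in 1 panel per library, with the gene as a grey bar and its TSSs as arrows below. Filled points are WT peaks that overlap a peak of the other WT list and open points are all others; 10 of 11 WT A points and 9 of 27 WT G points are filled, and KO G has 1 point.

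At the distal promoter, the region at +0.129 kb (chr16:92825735-92826305) covered exon 1 and the sequence just upstream. It had a fold enrichment of 9.98 (WT A) and 6.80 (WT G) and no peak in KO A or KO G, with −log10 q of 14.9 and 6.51. The summits of the pair of WT lists were 3 bp apart, the smallest gap in the family. A further WT G peak lay at -0.399 kb and others at +0.561 and +1.312 kb, all in WT G alone, with fold enrichments from 5.52 to 5.57. The summit of WT A fell in exon 1, which is untranslated there, and its window held a pair of RUNX cores in the same orientation, with no match to the longer RUNX motif. The stretch with both cores is shown because it lies in the promoter of a RUNX gene.
Runx1 P1 summit, chr16:92826029-92826055, plus strand: aactTGTGGTtcTGTGGTtgtttatga
The centres of the cores lay 7 bp before and 1 bp after the WT A summit on the plus strand.

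The distal promoter as RefSeq gives it (GRCm38.p6) was overlapped by the peaks of both WT lists, and it held a DR1 match with 2 mismatches, AGGGCATAGCTCA, which 3.86% of 32851 promoters of the same length (300 bases) also held. The nearest base of the match was 33 bp upstream of the GENCODE TSS, and its centre was 145 bp from the WT A summit. The WT G peak (chr16:92825831-92826305) covered the match, and the WT A peak (chr16:92825735-92826157) ended before it. The upstream part of the promoter is given on the gene strand, with the match in capitals.
Runx1 P1 promoter, chr16:92826150-92826324, minus strand: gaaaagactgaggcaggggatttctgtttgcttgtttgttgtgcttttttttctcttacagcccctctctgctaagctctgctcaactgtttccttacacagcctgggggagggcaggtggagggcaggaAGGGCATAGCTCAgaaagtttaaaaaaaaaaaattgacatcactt

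At the proximal promoter, the region at +129.7 kb (chr16:92696225-92696740) was the weakest of the 8 Runx1 regions. Its fold enrichment was 5.93 in WT A and 6.45 in WT G, with −log10 q of 5.22 and 5.73 and no KO peak. WT A had a pair of peaks there and WT G had 1, and the leading summits were 176 bp apart. The summit of the second WT A peak, at +129.555 kb, lay nearer to the WT G summit at +129.592 kb. A second WT G peak over P2, with a fold enrichment of 7.09, had no counterpart in WT A.

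Between the promoters, the region at +42.1 kb (chr16:92783400-92784744) lay in the long intron 2 of the P1 transcript (Runx1-201). It was the strongest WT A region of the family, with a fold enrichment of 12.6 (WT A) and 9.67 (WT G), and it was the only member region with a KO peak. The −log10 q was 22.0 in WT A, where the peak ranked 125 of 4751, 11.8 in WT G, where it ranked 668 of 9766, and 2.51 in KO G, where it ranked 193 of 208. KO A had no peak there. The summits stood for 31 fragments in WT A (95% Poisson interval 21.1 to 44.0, counting error only), 14 in WT G (7.65 to 23.5) and 12 in KO G (6.20 to 21.0). The KO G summit was 29 bp from that of WT A and 6 bp from that of WT G, so the 3 lists pointed to 1 place. In KO G the local background at the summit was 1.81 times the genome-wide level of that library, against 1.00 times in both WT libraries, and the KO G fold enrichment of 4.82 was the lowest of the 3. Both WT lists held a second peak in the region, at +41.7 kb, with a fold enrichment of 5.91 (WT A) and 8.36 (WT G).

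Of the 11 family regions, 1 therefore had a KO peak (9.09%, 95% exact binomial interval 0.230 to 41.3%), against 5.87% of all 3423 regions. The interval treats the regions as independent, although all lie near Runx1 or Runx2. The count of regions with a KO peak fell to 0 at a −log10 q of at least 3 and without KO G. It was also 0 at 50% overlap of both peaks, which peak widths alone settled. The KO G peak was 112 bp wide, and the WT peaks over it were 482 bp (WT A) and 821 bp (WT G) wide. The lowest fold enrichment of a peak at genome-wide background was 5.60 in KO A and 4.65 in KO G. All 11 regions had a fold enrichment above both values in both WT lists. Among all regions above these levels in both WT lists, 2.81% of 2421 had a KO A peak and 5.57% of 3194 had a KO G peak. The lists show only peaks past the threshold, so weaker KO signal at the other 10 regions could not be read from them.

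Upstream of Runx1, the near cluster held a pair of regions. The region at -26.1 kb (chr16:92851883-92852615) was intergenic, with a fold enrichment of 7.62 (WT A) and 8.20 (WT G). The region at -41.2 kb (chr16:92866924-92867794) lay in an intron of Gm49723, an lncRNA gene, and reached 9.46 and 12.2. Its summits were 26 bp apart and stood for 23 and 18 fragments. No KO peak was found at either.

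The far cluster was intergenic. Its most distant region in both WT lists, at -386 kb (chr16:93211307-93212697), lay close to halfway to Setd4, the next protein-coding gene. It was still nearer to Runx1, as the Setd4 TSS lies 777.654 kb from the distal Runx1 TSS. There the fold enrichment was 9.07 in WT A and 12.9 in WT G, the highest WT G value of the family, where the peak ranked 162 of 9766. The region at -367 kb (chr16:93192318-93193147) had 8.59 and 8.88. WT G held 3 further peaks within the stretch from -365.8 to -386.8 kb besides the lone peaks near -203 and -206 kb. Neither region had a KO peak. Assignment by nearest TSS does not show which gene such distant regions serve. A limit of 100 kb to the TSS kept 9 of the 11 family regions in both WT lists.

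At the other end of the gene, the region at +213 kb (chr16:92612451-92612878) lay in intron 7 of Runx1-201. It was also -0.15 kb from the TSS of the lncRNA gene Gm26626, and so counted as promoter in the annotation. The fold enrichment was 6.72 in WT A and 9.03 in WT G. Over the 8 Runx1 regions, 2 were classed as promoter, 2 as intron, 3 as intergenic and 1 as exon, while 10.8% of all regions were promoter, 50.8% intron, 31.5% intergenic and 3.42% exon.

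Runx2 (ENSMUSG00000039153.16, chr17:44495987-44814797, minus strand) showed another layout. All 3 of its regions in both WT lists lay in introns downstream of the proximal TSSs, at +161 kb (chr17:44653176-44653790), +151 kb (chr17:44663100-44664681) and +112 kb (chr17:44702237-44702797). The region at +112 kb had a fold enrichment of 10.2 (WT A) and 6.45 (WT G). The region at +151 kb had 9.07 and 9.03, with summits 469 bp apart, the widest gap in the family. The region at +161 kb had 7.50 and 7.01, with summits 8 bp apart. The only peak within 1 kb of a Runx2 TSS was a WT G peak at +77.9 kb, its midpoint -0.29 kb from a proximal TSS, with 7 fragments and a fold enrichment of 5.16. No WT list had a peak at the distal Runx2 promoter, and no KO peak was assigned to Runx2. The TSS of Supt3, a gene for a transcription coactivator subunit, lies inside Runx2, between its promoters and 37.074 kb from the nearest distal Runx2 TSS. When each gene was given 1 TSS at its 5′ end, all 3 regions were nearest to Supt3, and 0 regions in both WT lists remained for Runx2, although each lies within the Runx2 transcript.

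**Figure D3:**
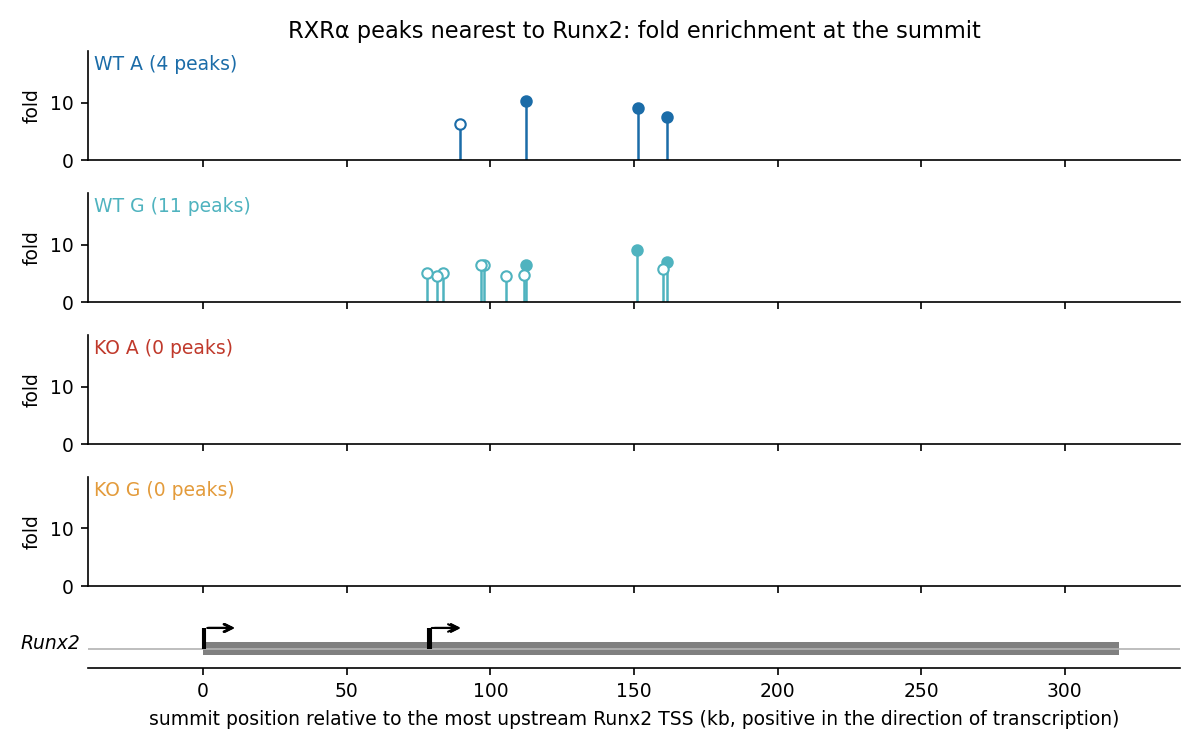
Fold enrichment at the summit (y axis) of every peak nearest to Runx2 against the summit position relative to its most upstream TSS in kb (x axis, positive in the direction of transcription), in 1 panel per library, with the gene as a grey bar and its TSSs as arrows below. The 4 WT A and 11 WT G peaks fall between 77.9 and 161.6 kb, filled points overlap a peak of the other WT list, and both KO panels are empty.

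Runx3 (ENSMUSG00000070691.10, chr4:135120652-135177990, plus strand) had only the WT G peak at chr4:135203064-135203556, beyond the 3′ end of the gene and 50.8 kb from the nearer Runx3 TSS. It had a fold enrichment of 5.80, a −log10 q of 4.64 and 8 fragments, equal to the median of the WT G list in each, and WT A had none. Cbfb (ENSMUSG00000031885.14, chr8:105170674-105217989, plus strand) had none, and its promoter was covered by no peak of any library.

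The strength of the 11 regions was compared with that of all regions in both WT lists. The median fold enrichment was 9.07 in WT A and 8.88 in WT G for the family, against 6.72 and 7.60 for all regions. In WT A 9 of the 11 were above the median of all regions, and in WT G 7 of 11. The members ran from 5.93 to 12.6 in WT A and from 6.45 to 12.9 in WT G, and all regions reached 22.0 and 23.2. The order of the regions differed between the libraries: Runx1 +42.1 kb led in WT A and Runx1 -386 kb in WT G, and Runx2 +112 kb, second in WT A, shared the lowest fold of the members in WT G with the P2 region. The median gap between the WT summits was 41 bp for the family and 96 bp for all regions, and 6 of 11 gaps were within 50 bp (54.5%), against 27.4% of all.

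**Figure D4:**
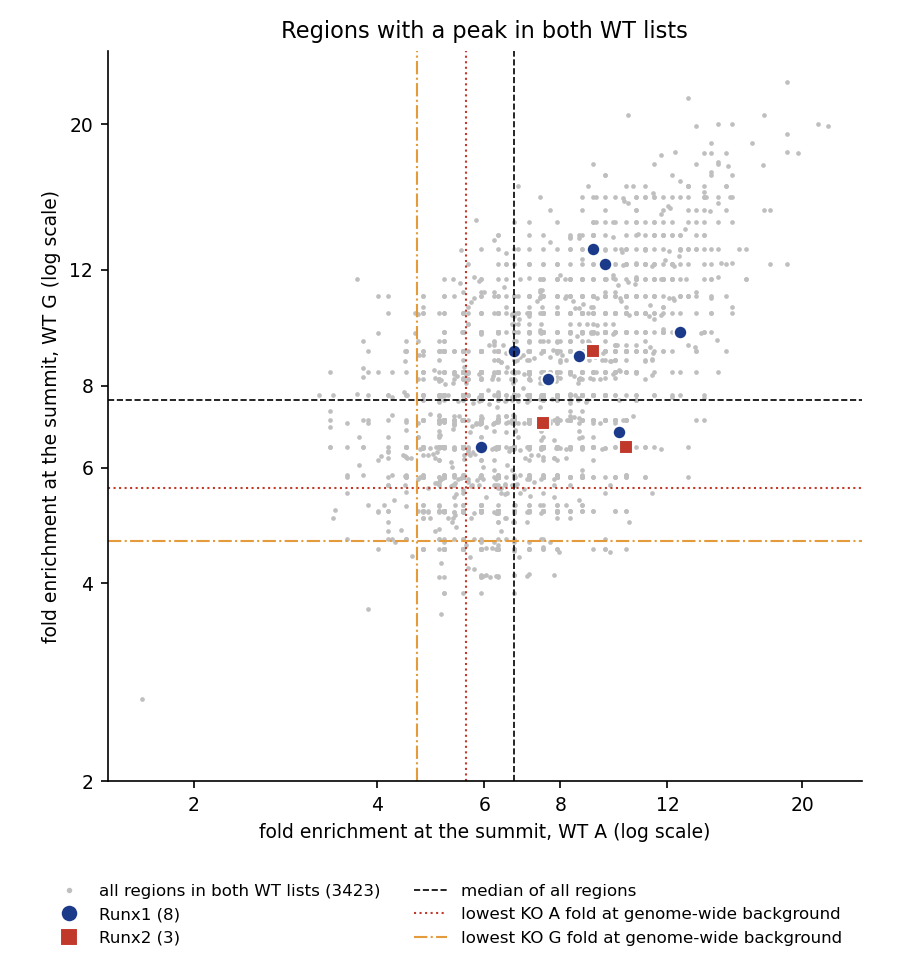
Fold enrichment at the summit in WT A (x axis) and WT G (y axis), both on log scales, for the 3423 regions with a peak in both WT lists (grey), those nearest to Runx1 (circles, 8) and to Runx2 (squares, 3). Dashed lines are the medians of all regions (6.72 and 7.60), and dotted and dash-dotted lines are the lowest fold of a KO A (5.60) and KO G (4.65) peak at genome-wide background; all 11 member points lie above both on either axis.

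These differences rest on few fragments. The leading WT A summits of the 11 regions stood for 14 to 31 fragments and those of WT G for 9 to 19. The plot of fragments per region shows that within a WT library the intervals of all regions overlap. In WT A the strongest region, Runx1 +42.1 kb (31, interval 21.1 to 44.0), and the weakest, P2 (14, interval 7.65 to 23.5), still overlapped. In WT G the strongest, Runx1 -386 kb (19, interval 11.4 to 29.7), overlapped the weakest as well (9, interval 4.12 to 17.1). The order of neighbouring regions is thus not resolved at this depth.

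**Figure D5:**
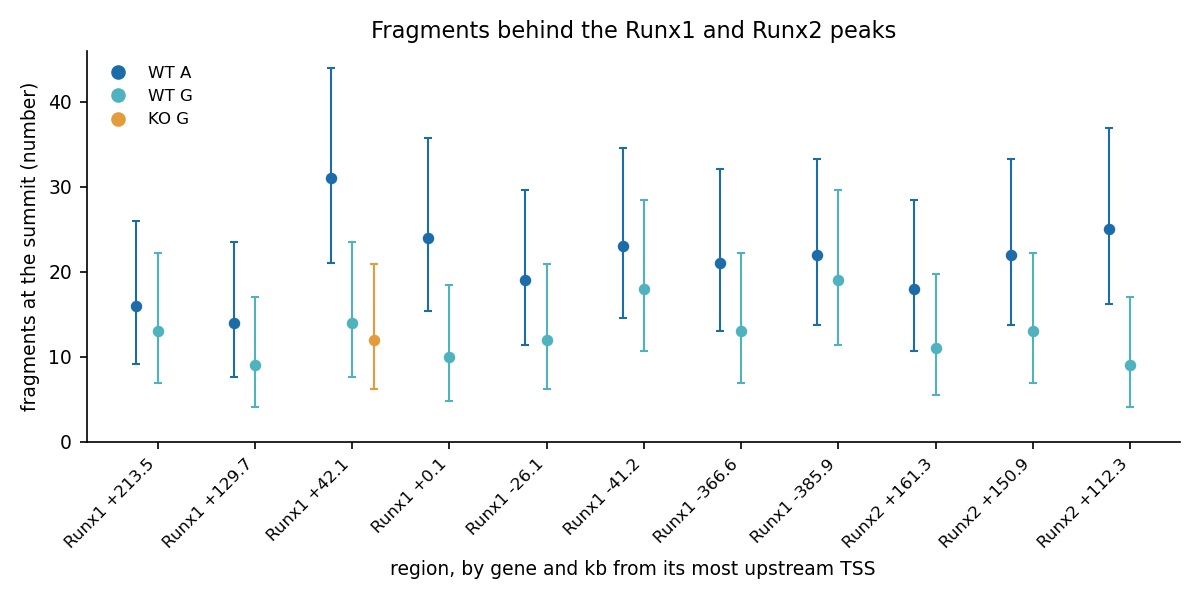
Fragments at the summit of the leading peak (y axis) for the 11 Runx1 and Runx2 regions in both WT lists (x axis, gene and kb from its most upstream TSS) in WT A, WT G and, where it had a peak, KO G. Points are whole fragments derived from the deposited values and bars are 95% Poisson intervals; WT A points run from 14 to 31, WT G points from 9 to 19, and the single KO G point is 12.

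The number of Runx1 regions was set against the space in which peaks are assigned to it. With 8 regions in both WT lists, Runx1 stood 12th among all genes by number, tied with 7 others, and Runx2 with 3 stood 178th. The stretch of genome nearest to a Runx1 TSS was 618 kb and that of Runx2 623 kb, against a median of 47.4 kb per gene, and 3.80% of genes had a longer stretch than Runx1. Per 100 kb, Runx1 had 1.29 regions and Runx2 0.481, against 0.126 over all genes. By this density Runx1 was 1133rd and Runx2 1638th of the 1933 genes with a region. Among the 1975 genes with a stretch at least 50% as long as that of Runx1, a comparison chosen after its values were seen, the median was 0 regions and 8 genes (0.405%), Runx1 included, had 8 or more.

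The motifs searched at the summits were DR1 with at most 2 mismatches, RUNX (TGTGGTTA, TGTGGTTT, TGCGGTTA or TGCGGTTT), PU.1 (AAGGAAGTG or GAGGAAGTG), C/EBP and AP-1 (TGACTCA or TGAGTCA), on both strands and within 50 bp of the summit. DR1 was in 1 of 11 member windows (6.34% of all), C/EBP in 3 of 11 (19.4% of all), and RUNX, PU.1 and AP-1 in 0 of 11 (4.32%, 3.30% and 5.49% of all). In flanking windows 500 bp away, 1.55% of all held DR1, 8.52% C/EBP and 1.40% RUNX. At least 1 of the 5 motifs was in 4 of 11 member windows (36.4%), against 34.1% of all, so the members did not stand apart in this. The DR1 match, TGACTTCTGACCC on the plus strand, lay at Runx2 +112 kb, 17 bp from the WT A summit. The C/EBP matches lay at Runx1 +213 kb (TTAAGCAA), Runx1 P2 (TTACTCAA) and Runx2 +161 kb (TTACTGAA). With 3 mismatches allowed, DR1 was also found at Runx1 +42.1 kb (GGATCTTTGGCCT) and Runx1 -41.2 kb (TGGTCTTTGACCA), 3 of 11 windows against 21.2% of all. The RUNX core of 6 bases, searched after the windows had been seen, was in 3 of 11 member windows, those at P1, -26.1 kb and -41.2 kb of Runx1, against 16.5% of all windows and 8.71% of all flanks. The members' own flanks held the core in 3 of 22 windows (13.6%) and the longer RUNX motif in 2 of 22 (9.09%). A pair of cores in 1 window, as at P1, was found in 1.40% of all windows, 0.526% of all flanks and 1 of the 22 member flanks. At -41.2 kb the core and the DR1 match overlap and form 1 run of capitals in the sequence above. A match gives only the letters in the window, and an absent one says nothing about the factor.

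Genes whose pattern over the 4 libraries was nearest to that of Runx1 were ranked by the Euclidean distance of log2(1 + summed −log10 q). They were Tomm20 (0.511), a mitochondrial import receptor, Arhgef3 (0.652), Rin2 (0.711), a Rab5 exchange factor, Cd36 (0.727), the fatty acid scavenger receptor, and Klf6 (0.845), a zinc finger transcription factor. Each had 0 peaks in KO A and 1 in KO G, like Runx1, and from 6 to 16 regions in both WT lists. Both KO lists entered the distance, so the likeness in KO peaks was part of the choice.

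The wider RUNX network was taken from lists of cofactors and targets. Among 17 RUNX cofactors, 3 had a region in both WT lists (17.6%, against 8.85% of all genes). They included Tle3, a Groucho corepressor, with 3 regions and Hipk2, a kinase, with 1. The strongest Tle3 peaks had a fold enrichment of 12.2 in both WT lists. Among 9 blood transcription factors that act with RUNX1, 2 had such a region, Cebpa with 3 and Fli1 with 1. Spi1, the gene for PU.1, had 5 peaks in WT G and 0 in WT A, and Lyl1 had 3 and 0. Among 9 RUNX targets of blood cells 1 had a region, Itga4, an integrin, with 1. Csf1r, the receptor of M-CSF, had 0 peaks in every library. Among 7 RUNX2 targets of bone 1 had regions, Spp1, which encodes osteopontin and is also made by macrophages, with 3. The median was 0 regions per gene in each of the 4 lists, as over all genes, and no gene of these lists had a KO peak.

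The label of the cells was checked at marker genes, where binding near a gene is not its expression. A region in both WT lists was nearest to 6 of 8 AM markers, 0 of 6 T and B cell markers, 0 of 3 neutrophil markers and 1 of 3 epithelial markers, Scgb1a1, against 8.85% of all genes, at which share lists of 3 or 6 genes may hold none. The only marker with a KO peak was Itgax, the gene whose promoter drives Cre, in KO G with a −log10 q of 5.20. Peak lists do not measure the deletion of Rxra and Rxrb, which was not tested here.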

How the data were processed

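RXRα HT-ChIPmentation libraries were grouped by the sample labels (WT A, WT G, KO A, KO G). The authors trimmed reads with cutadapt, aligned them to mm10 with Bowtie2, filtered with SAMtools and called peaks per library against an input with MACS3 at a q of 0.05. Deposited values are a fold enrichment (a ratio, each term with 1 added), −log10 p and −log10 q at the summit, a score of 10 times −log10 q, and the summit. The input file was not used here. The study tested genotypes on read counts, which the lists do not hold, so numbers and overlaps of peaks were compared.

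Python 3.11.15 was used with pandas 2.3.3, pysam 0.24.0, matplotlib 3.10.9, scipy 1.17.1 and numpy 2.4.6. Genes and TSSs came from GENCODE mouse release 21 (basic set), promoters from RefSeq, where 6 promoters matched the members by symbol. Overlap meant at least 1 bp. A promoter spanned 1 kb before to 100 bp after a TSS. Fragments were solved from fold enrichment and −log10 p as whole numbers within 0.01 in −log10 p; all peaks of the 4 lists were solved. The fewest fragments of a peak were 10 (WT A), 5 (WT G), 10 (KO A) and 8 (KO G). Named were the members, genes of the fixed lists with a region in both WT lists (1 is not reported here), and the 5 genes most like Runx1; Spi1, Lyl1, Csf1r, Tle1 and the markers were named after their values were seen. Members, lists and rules were chosen with earlier results of these data known. Alternatives were the q threshold, list length, summit in place of midpoint, the TSS set, distance, overlap, motif windows and leaving out each library. The overlap, TSS, fragment and motif steps were tested on simulated data.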

Additional observations from a re-analysis of the deposited data

How the results depend on the processing

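Of 56 values recomputed under 18 settings, 38 moved by at most 1.5 times and 0 changed sign. The family difference of 26.5 peaks was 16.5 with WT lists of equal length, 16 with 1 TSS per gene and 11.5 with genes of all types, and ran from 14.5 (without WT G) to 38.5 (without WT A) when 1 library was left out, at permutation p-values of 0.333 without a WT library, the smallest such groups can give, and 0.667 without a KO library. The 11 regions in both WT lists were 6 at 50% overlap of both peaks, 7 with 1 TSS per gene, which gives the Runx2 regions to Supt3 and Runx1 +213 kb to Clic6, and 3 with genes of all types, which gives most to lncRNA genes. The 1 region with a KO peak was 0 at a −log10 q of at least 3, and 0 to 1 when a KO library was left out. That count was also 0 at 50% overlap of both peaks, which the narrow KO G peak there could not reach. The 13 shared WT A peaks were 6 at 50% overlap and 5 with genes of all types. DR1 windows went from 1 to 0 with at most 1 mismatch and 3 with at most 3. RUNX went from 0 to 2 within 100 bp and, added after seeing the data, 3 with the 6-base core. C/EBP went from 3 to 1 within 25 bp, and AP-1 from 0 to 1 within 100 bp. Other than where the setting itself reassigns or removes peaks, the cause was not tested. The letters A and G recur in both genotypes, and nothing says that they pair the libraries: with the replicate block the difference was again 26.5, from 15 for A and 38 for G. The peaks of these lists stood for at least 10 (WT A), 5 (WT G), 10 (KO A) and 8 (KO G) fragments at the summit. The part of sequencing depth in these limits was not tested.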

Other observations

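The RefSeq promoters of the other members (GRCm38.p6, 300 bases each) were scanned with the same 5 motifs. The distal Runx2 promoter held 1 RUNX match and 1 C/EBP match, motifs found in 3.10% and 18.5% of all 32851 promoters, and no library had a peak over it. The Cbfb promoter held 1 PU.1 match, found in 2.33% of all promoters, and had no peak either. Both Runx3 promoters held 0 matches and 0 peaks. The proximal Runx1 promoter in RefSeq held 0 matches and was covered by 1 WT G peak. The 2 WT A peaks of the family without a WT G counterpart, 1 at Runx1 and 1 at Runx2, lay in introns at +150.3 and +89.5 kb, with fold enrichments of 7.11 and 6.33. Among the cofactors without a region in both WT lists, Tle1 had 1 peak in WT A and 3 in WT G that did not meet in a shared region.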
